A study of Homo sapiens with 4 samples.

Results

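The 4 stretches of chromosome 7 described here carry genes whose messenger levels were, for the most part, lower in SAS cells with a knockdown of HAI-1 than in control SAS cells. They were chosen by position, in 4 windows of start coordinates, after the same comparison of knockdown with control had shown lower values there, so the differences between the groups below are a description and carry no test. A member is a probe set (a group of short array probes that report on 1 transcript region) whose first listed alignment starts inside a stretch and whose mean signal over the arrays is 55 or more. The first and last member starts are bases 30430674 and 64502091 in stretch 1, 77004780 and 98854689 in stretch 2, 107318880 and 129693960 in stretch 3, and 138695550 and 150566990 in stretch 4. Probe sets of EGFR, MET, INHBA and MCM7 are left out where they start inside a stretch, 14 in all. Those that start outside, as for MCM7, are counted with the rest of the chromosome. The rule gives 621 probe sets of 27985 at or above that minimum, and of 54613 on the array outside its controls. The members lie on both arms of chromosome 7 and carry 283 named genes. The 4 stretches hold 214, 146, 136 and 125 members, and 732 further probe sets at or above the minimum form the rest of the chromosome. A further 668 probe sets in the stretches lay under the minimum and are not members.

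SAS cells are an established line of human oral squamous carcinoma. In the HAI-1KD group (2 arrays) the cells had received a retroviral vector, pSINsi-hU6, that expresses a short hairpin RNA against SPINT1, the gene of HAI-1, a membrane inhibitor of trypsin-like serine proteases such as matriptase and hepsin. The HAI-1con group (2 arrays) had received the same vector with a scrambled hairpin, so both groups were infected. The labels do not say whether the infected cells were a pool or 1 clone. They mark the 2 arrays of a group Ex1 and Ex2. They do not say that these came from separate cultures, so the spread between them may be technical.

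RNA level follows from how often a gene is transcribed, how many copies of it a cell holds and how fast its message is lost. Carcinoma lines often carry gains and losses of whole chromosome arms, and genes of a gained or lost stretch tend to differ in RNA level together. Chromosome 7 carries kinase, chromatin, cytoskeletal, mitochondrial and imprinted genes, and clusters of KRAB zinc finger genes, which code for DNA-binding repressors. DNA copy number was not measured in these samples.

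The 2 hairpin sequences are the only designed difference between the groups. They are 21 bases long, have the same base composition, and differ at the 12 positions printed in capitals.
SPINT1 target of HAI-1KD: gggCAggCATAGAcTTgaAgG
scrambled sequence of HAI-1con: gggACggAGATTTcACgaGgA
The brighter SPINT1 probe set had signals of 135 and 282 on the HAI-1KD arrays, against 1451 and 1445 on the HAI-1con arrays, a log2 difference of -2.79. A second SPINT1 probe set was called present on no array, and its groups overlapped. SPINT1 lies on chromosome 15, outside the stretches. Of 10 epithelial and squamous markers, 9 were called present on all 4 arrays (KRT8, KRT18, KRT5, KRT14, KRT17, EPCAM, CDH1, TP63 and SFN), and the summed signal of the list was 134828 and 160972 in HAI-1KD and 144366 and 144710 in HAI-1con. None of 6 fibroblast markers was present on all arrays, and DCN, PDGFRB and COL3A1 were present on none. Their summed signal was 375 and 403 in HAI-1KD and 423 and 326 in HAI-1con. Of 6 leukocyte markers only CD14 was present on all arrays, while PTPRC and CD3E were among those present on none (sums of 916 and 858 in HAI-1KD, 926 and 727 in HAI-1con). Of 5 endothelial markers only CDH5 was present on all arrays, and VWF and KDR were on none. The endothelial sum was 980 and 1345 in HAI-1KD, against 655 and 636 in HAI-1con, and its part in the results was not tested.

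Promoters of 4 member genes are shown, chosen after their values were seen: FIGNL1 and BET1 are among the lowest in HAI-1KD, and SUN3 and ZNF138 among the highest. Each run holds 250 bases before the RefSeq gene start and 50 after it (RefSeq, build GRCh38.p14), read along the strand of the gene. Capitals mark 3 motifs, each searched on both strands: the GC box, which reads GGGCGG on either strand, the CCAAT box, which is named by its letters, and the TATA box, which reads TATAAA on either strand. FIGNL1 is at chr7:50450301-50450600 (minus strand), BET1 at chr7:94004306-94004605 (minus strand), SUN3 at chr7:48029058-48029357 (minus strand) and ZNF138 at chr7:64794178-64794477 (plus strand).
FIGNL1: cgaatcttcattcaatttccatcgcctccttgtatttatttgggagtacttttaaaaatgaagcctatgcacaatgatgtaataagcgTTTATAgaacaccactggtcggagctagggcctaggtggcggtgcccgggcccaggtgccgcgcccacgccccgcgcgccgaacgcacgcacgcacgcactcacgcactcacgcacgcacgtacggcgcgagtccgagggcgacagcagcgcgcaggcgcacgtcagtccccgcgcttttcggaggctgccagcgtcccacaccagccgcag
BET1: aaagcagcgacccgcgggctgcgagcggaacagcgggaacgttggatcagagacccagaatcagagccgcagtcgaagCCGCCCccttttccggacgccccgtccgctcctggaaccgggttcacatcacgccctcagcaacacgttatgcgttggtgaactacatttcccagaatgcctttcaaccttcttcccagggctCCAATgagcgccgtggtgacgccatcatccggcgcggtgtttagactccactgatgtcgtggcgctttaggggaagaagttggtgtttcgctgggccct
SUN3: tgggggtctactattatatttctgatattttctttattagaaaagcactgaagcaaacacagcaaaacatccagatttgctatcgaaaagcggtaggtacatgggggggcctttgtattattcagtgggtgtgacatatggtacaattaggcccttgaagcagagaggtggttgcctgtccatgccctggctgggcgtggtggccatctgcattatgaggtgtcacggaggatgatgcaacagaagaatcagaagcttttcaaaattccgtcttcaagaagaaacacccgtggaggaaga
ZNF138: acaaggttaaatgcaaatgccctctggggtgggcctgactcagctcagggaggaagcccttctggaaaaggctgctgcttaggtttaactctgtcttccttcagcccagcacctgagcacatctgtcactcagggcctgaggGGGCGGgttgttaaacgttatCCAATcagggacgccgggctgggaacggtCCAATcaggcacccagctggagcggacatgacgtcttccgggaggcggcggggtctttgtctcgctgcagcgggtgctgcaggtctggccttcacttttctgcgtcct
The FIGNL1 run holds 1 TATA box, the BET1 run 1 GC box and 1 CCAAT box, the ZNF138 run 1 GC box and 2 CCAAT boxes, and the SUN3 run none of the 3. RefSeq promoters were matched for 219 of the 283 member genes. A GC box was found in 67.6% of these, in 70.8% of 253 promoters of the rest of chromosome 7, in 70.3% of 10072 promoters of all genes tested and in 44.6% of all 27305 RefSeq promoters. A CCAAT box was found in 36.5% of member promoters, 39.9% of those of the rest of the chromosome, 36.9% of those of all genes tested and 35.7% of all. A TATA box was found in 5.5% of member promoters, 5.5% of those of the rest of the chromosome, 5.8% of those of all genes tested and 12.0% of all. The median log2 difference was -0.46 in the 148 member genes with a GC box and -0.41 in the 71 without one. It was -0.44 in the 80 with a CCAAT box and -0.43 in those without one, and -0.63 in the 12 with a TATA box and -0.42 in the 207 without one. Below 0 were 9 of the 12 genes with a TATA box and 180 of the 207 without one.

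Levels of the members were lower in HAI-1KD across all 4 stretches. On the log2(signal + 16) scale the median difference, HAI-1KD minus HAI-1con, was -0.40 over the 621 members, with the middle of the distribution between -0.68 and -0.12. That median corresponds to 75.9% of the control level. The median signal of the members was 315 and 303 on the HAI-1KD arrays, against 416 and 416 on the HAI-1con arrays. Each HAI-1KD array set against each HAI-1con array gave a median between -0.43 and -0.39, while the 2 HAI-1KD arrays differed from each other by a median of 0.03 and the 2 HAI-1con arrays by 0.01. The pooled SD of the per-array medians within groups was 0.013.

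A log2 difference below 0 was found for 510 members (82.1%), against a background of 45.9% of all probe sets at or above the minimum. Both HAI-1KD arrays lay below both HAI-1con arrays for 396 members (63.8%, background 26.2%), and above both for 44 (7.09%, background 31.2%). By limma, at an adjusted p under 0.05 over all 27985 probe sets, 217 members (34.9%, background 8.06%) were called lower and 6 (0.966%, background 7.09%) higher. The count of 217 depends on the control arrays: it fell when either HAI-1con array was left out. The count over all probe sets fell as well, while the median difference of the members stayed at -0.40. A difference of 2-fold or more was found for 56 of the 621 members in the lower direction and 3 in the higher. Over all 27985 probe sets it was found for 843 in the lower direction and 751 in the higher. The rule was set on this contrast, so nothing is read from these counts.

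**Figure D1:**
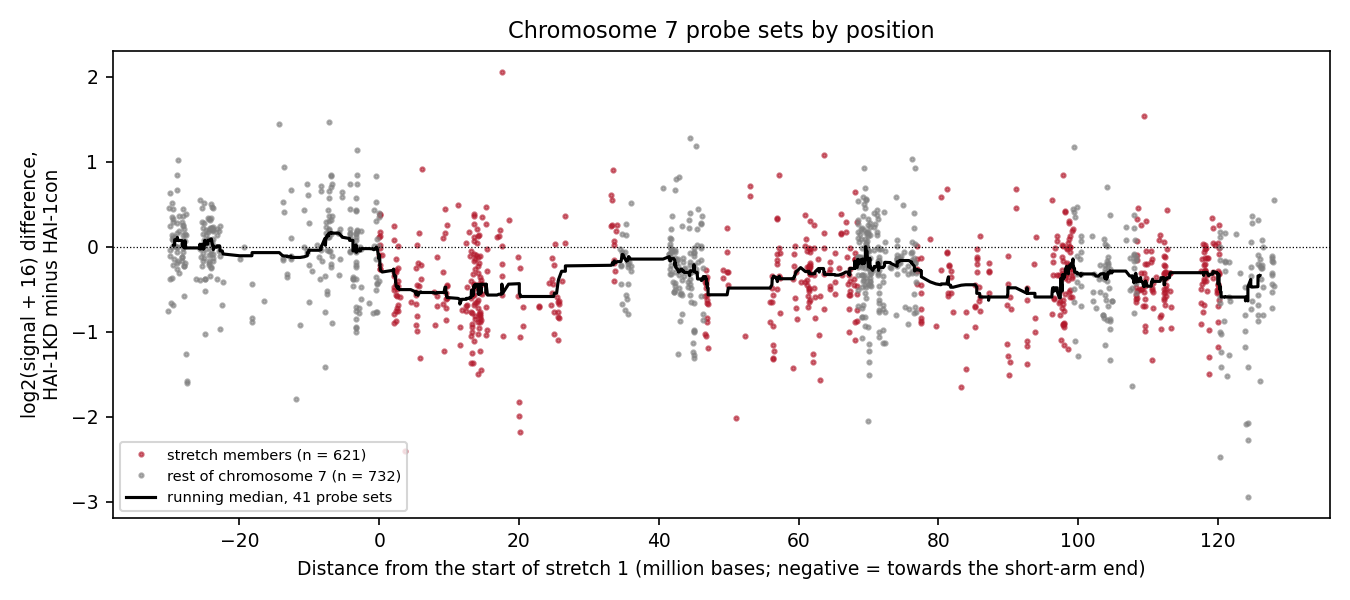
Log2 difference (HAI-1KD minus HAI-1con, y axis) of chromosome 7 probe sets at or above the minimum, by distance in Mb from the start of stretch 1 (x axis, negative towards the short-arm end). Red points are the 621 members, grey points the other 732 probe sets, and the line is a running median of 41 probe sets. The line lies near 0 before the first stretch and below 0 over most of the chromosome after it.

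The stretches did not stand alone on the chromosome. Median log2 differences were -0.45, -0.38, -0.35 and -0.36 in stretches 1 to 4, against -0.22 (122 probe sets), -0.18 (185) and -0.32 (82) in the 3 gaps between them and -0.41 (68) at the end of the long arm. The 275 probe sets before the first stretch, at the end of the short arm, had a median of 0.01. The gaps and the long-arm end together had a median of -0.23 over 457 probe sets, of which 76.1% were below 0. The name of lowered stretches is thus only partly borne out: values were also low between and after them, and the part that was not low is the one before stretch 1, a split made after the values were seen. Probe sets outside chromosome 7 had a median of 0.05 and 44.5% below 0. In windows of 5 Mb with 10 or more probe sets, 24 of 25 windows from 30 Mb on had a median below 0, and 2 of 5 windows before it. Windows with fewer probe sets were those of 10 to 15 Mb (6 probe sets, all below 0, median -0.53) and 80 to 85 Mb (9, median -0.30). The first of these lies before stretch 1, so that part was not free of low values.

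**Figure D2:**
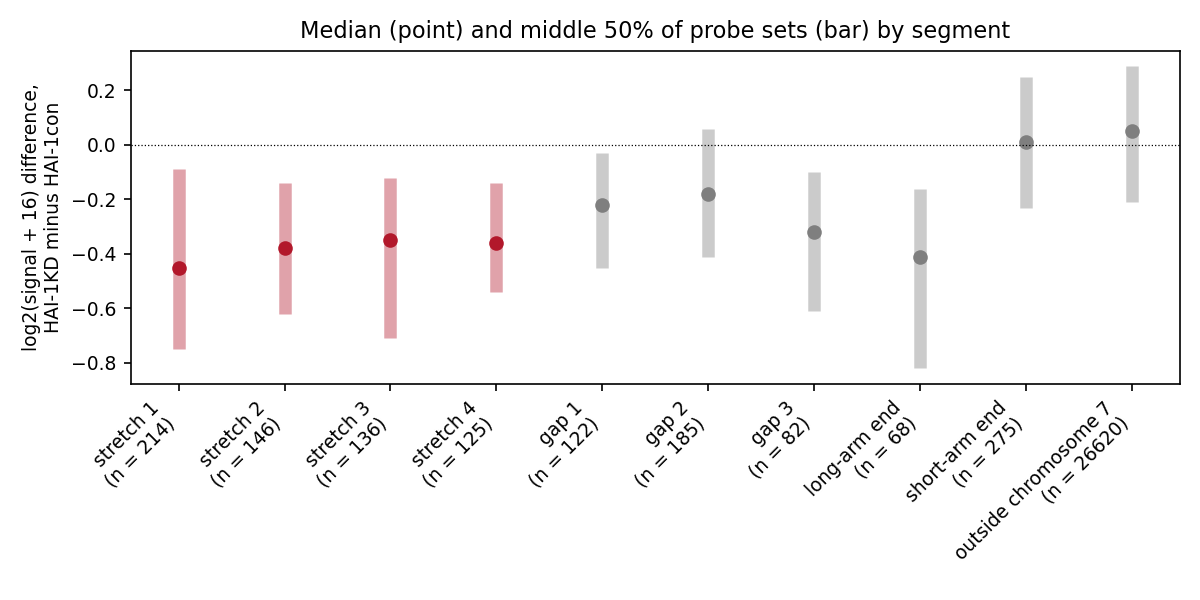
Log2 difference (HAI-1KD minus HAI-1con, y axis) in the 4 stretches (red), and in the gaps, both chromosome ends and outside chromosome 7 (grey), with a point at the median and a bar over the middle 50% of probe sets. The short-arm end, with a median of 0.01, stands beside the probe sets outside chromosome 7, with a median of 0.05.

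Within the stretches the level varied by cytogenetic band. The lowest band was p12.2 (7 members, median -1.06, all below 0). Its members are probe sets of only IKZF1, FIGNL1 and GRB10. Band p12.1 had -0.71 (4 members), but 2 of these report on HAUS6, whose RefSeq gene is on chromosome 9. The bands p13 (75 members), p14.1 (29) and p11.2 (21) had medians of -0.55, -0.58 and -0.59. Band q31.32 had -0.63 (7 members). The exceptions were p15.1 at the start of stretch 1 (12 members, median 0.01), p12.3 (10 members, 0.06) and q11.21 at its end (13 members, 0.19). Here too some members report on genes that RefSeq places on other chromosomes. They are CDC14B in p12.3 (0.31), and YWHAE (0.25) and INTS4 (0.19) in q11.21.

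The probe sets at the edges were not set apart in the same way everywhere. The inside was lower than the outside at both edges of stretches 2 and 3 and at the start of stretch 4. It was not lower at either edge of stretch 1 or at the end of stretch 4. The first 10 probe sets inside stretch 1 had a median of 0.05, against -0.27 in the 10 outside it. At its end the 10 members inside had 0.05 and the 10 outside -0.16. At the start of stretch 2 the median was -0.46 inside and -0.08 outside, and at its end -0.50 inside and -0.01 outside. At the start of stretch 3 it was -0.36 inside and -0.19 outside, and at its end -0.25 inside and 0.02 outside. At the ends of stretch 4 it was -0.49 inside and -0.35 outside at the start, and -0.32 inside and -0.63 outside at the end. Named genes nearest the edges of stretch 1 were NOD1 inside its start (0.12) with ZNRF2 outside (0.01), and ZNF92 inside its end (0.25) with VKORC1L1 outside (-0.43). For the other stretches they were PTPN12 inside the start of stretch 2 (-0.41) with GSAP outside (-0.78), and PTCD1 inside its end (-0.55) with CPSF4 outside (-0.11). Next came DLD inside the start of stretch 3 (-0.26) with CBLL1 outside (-0.77). The last were LUC7L2 inside the start of stretch 4 (-0.65) with FMC1 outside (-0.12), and SMARCD3 inside the end of stretch 4 (0.26) with NUB1 outside, at 1419 and 1441 in HAI-1KD and 3173 and 2598 in HAI-1con. Of these edge genes NOD1, PTCD1 and DLD had a second member probe set of the other sign, at -0.10, 0.29 and 0.01.

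Set beside chromosome arms, the stretches were low in median log2 difference but not the lowest. Over 42 groups in all, the lowest were arm 4p at -0.70 (343 probe sets), 5p at -0.52 (242) and the stretches at -0.40. Next came 9p at -0.27 (307), the chromosome 7 gaps with the long-arm end at -0.23 (457) and Xq at -0.15 (446). The stretches were cut from chromosome 7 on this same contrast, while arms of other chromosomes are whole. Their ranks are therefore not like for like.

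**Figure D3:**
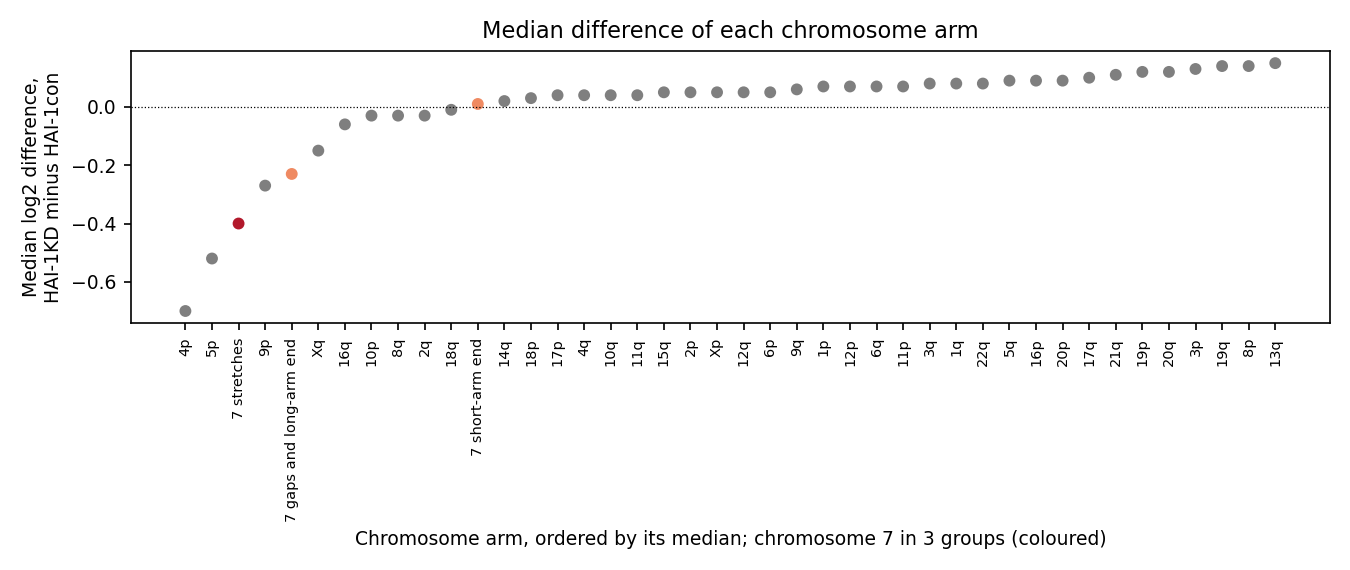
Median log2 difference (HAI-1KD minus HAI-1con, y axis) of 42 groups in order of their median (x axis), each a chromosome arm, with chromosome 7 split into the stretches, its gaps with the long-arm end, and its short-arm end. The stretches, at -0.40, follow 4p at -0.70 and 5p at -0.52.

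The size of the difference varied with signal level. Members with mean signals of 55 to 100 had a median of -0.15 (109 members), those of 100 to 200 had -0.28 (122), those of 200 to 500 had -0.41 (119), and those of 500 to 5000 had -0.52 to -0.54. In the 45 members at 5000 or more the median was -0.29 and 86.7% were below 0. Of the 483 members called present on all 4 arrays, 422 (87.4%) were below 0, with a median of -0.44. In the 47 members present on no array the median was -0.12, and in the 668 probe sets under the minimum it was -0.01. The constant 16 makes differences of dim probe sets smaller on this scale. A switch of detection was seen for 14 members (2.25%, background 1.20%) present on both HAI-1con arrays and on no HAI-1KD array, including probe sets of ST7, FASTK and PHTF2, and for 7 members (1.13%, background 1.31%) the other way.

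**Figure D4:**
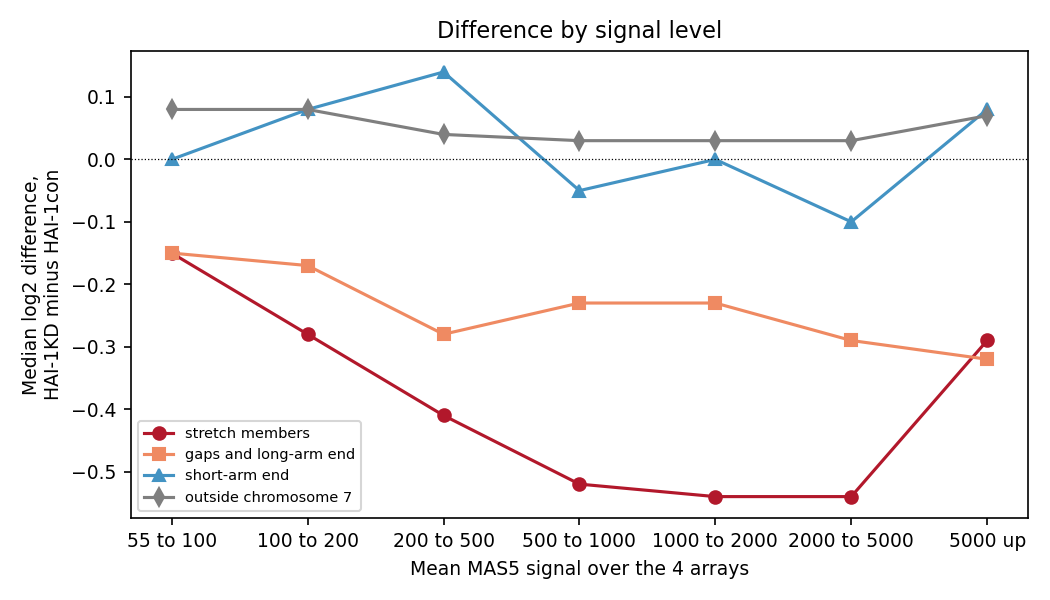
Median log2 difference (HAI-1KD minus HAI-1con, y axis) by class of mean signal over the 4 arrays (x axis), for members, the gaps with the long-arm end, the short-arm end and probe sets outside chromosome 7. The members' medians lie between -0.54 and -0.15, and those outside chromosome 7 between 0.03 and 0.08.

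The genes were grouped by role from lists chosen with earlier results of these data known. Each gene takes its member probe set of highest mean signal. Over all 283 genes, 234 (82.7%) were below 0 and the median was -0.44, against 47.5% below 0 and a median of 0.02 over all 12793 genes tested. By limma 127 genes (44.9%, background 10.3%) were called lower and 5 (1.77%, background 8.58%) higher, the backgrounds being the shares of all 12793 genes. Both HAI-1KD arrays lay below both HAI-1con arrays for 196 genes (69.3%, background 29.3%) and above both for 28 (9.89%, background 32.0%). The rule used this contrast, so nothing is read from the counts of a list below, and no list was compared with the other members. Where a gene had several member probe sets, all were below 0 for 103 genes, all above for 8 and of both signs for 28.

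Of the genes of mitochondria, ribosomes, RNA handling and protein folding, all 25 member genes were below 0 (median -0.48), and both HAI-1KD arrays lay below both HAI-1con arrays for each (background 29.3%). By limma 16 were called lower (background 10.3%) and 9 were not called. CCT6A, a subunit of the TRiC chaperonin that folds actin and tubulin, had signals of 10629 and 10891 in HAI-1KD, against 15972 and 17569 in HAI-1con, a difference of -0.64. The groups did not overlap. LSM5, part of the ring that binds RNA ends in splicing and decay, had 12693 and 14021 in HAI-1KD and 16108 and 16666 in HAI-1con (-0.30). SSBP1, which coats single-stranded mitochondrial DNA, had 8860 and 10632 in HAI-1KD and 13224 and 12899 in HAI-1con (-0.43). The HAI-1KD arrays were below both control arrays for each of these 3 genes.

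Actin, motor and vesicle genes were below 0 in 19 of 19, with 14 called lower (background 10.3%), none higher (background 8.58%) and a median of -0.58. ARPC1B, a subunit of the Arp2/3 complex that branches actin filaments, had 7031 and 6869 in HAI-1KD and 12535 and 12928 in HAI-1con (-0.87). CAPZA2, a filament capping protein subunit, had 8289 and 6866 in HAI-1KD and 10659 and 10334 in HAI-1con (-0.48). BET1, a SNARE of transport between the endoplasmic reticulum and the Golgi, is not on this list but lay among the lowest genes, at 639 and 719 in HAI-1KD against 2116 and 1966 in HAI-1con (-1.57). SRI, a calcium-binding protein, had 26246 and 31296 in HAI-1KD and 28620 and 29442 in HAI-1con, and its groups overlapped (-0.02).

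Metabolic enzymes and transporters were below 0 in 21 of 23, with 15 called lower (background 10.3%) and a median of -0.52. DLD, the dihydrolipoamide dehydrogenase shared by the mitochondrial 2-oxoacid dehydrogenases, had 9472 and 9413 in HAI-1KD and 11176 and 11526 in HAI-1con (-0.26). Its second member probe set gave 0.01. GGCT, an enzyme of glutathione turnover, had 6325 and 7094 in HAI-1KD and 8263 and 7815 in HAI-1con (-0.26). GARS1, the glycyl-tRNA synthetase, overlapped, with 7308 and 7418 in HAI-1KD and 6497 and 8036 in HAI-1con.

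Chromatin, transcription and repair genes were below 0 in 18 of 19, with 13 called lower (background 10.3%) and a median of -0.55, the lowest being FOXP2 at -1.65. TRRAP, a scaffold of histone acetyltransferase complexes, had 3459 and 3814 in HAI-1KD and 4735 and 4698 in HAI-1con (-0.38). LUC7L2, a splicing factor, had 2487 and 2268 in HAI-1KD and 3736 and 3758 in HAI-1con (-0.65). EZH2, the histone methyltransferase of Polycomb complex 2, had 1286 and 1285 in HAI-1KD, against 1534 and 1312 in HAI-1con (-0.14); both HAI-1KD arrays were below both HAI-1con arrays. FIGNL1, an ATPase of recombination repair, was not on the list. Its brightest probe set, at chr7:50479324-50485542, had 252 and 223 in HAI-1KD and 1002 and 981 in HAI-1con (-1.99), and its second member probe set gave -1.82.

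Growth signalling genes and kinases were below 0 in 24 of 27, with 12 called lower (background 10.3%), none higher (background 8.58%) and a median of -0.54. CDK6, a kinase of the G1 phase, had 7319 and 7654 in HAI-1KD and 8168 and 9549 in HAI-1con (-0.24), and 5 of its 6 member probe sets were below 0. BRAF, the MAP kinase pathway kinase, had 352 and 366 in HAI-1KD, against 237 and 347 in HAI-1con (0.31), the highest value of the list. Without HAI-1con array 1 it was 0.05 and without HAI-1con array 2 it was 0.57, and its second probe set gave -0.05. IGFBP3, which binds insulin-like growth factors, was among the brightest members at 43613 and 52822 in HAI-1KD and 47634 and 50273 in HAI-1con, with overlapping groups. TNS3, a focal adhesion protein, had 9558 and 9866 in HAI-1KD and 9317 and 8617 in HAI-1con (0.12), with both HAI-1KD arrays above.

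Interferon-related genes included SAMD9 (chr7:92566766-92567235), an interferon-inducible antiviral factor, at 2315 and 2119 in HAI-1KD and 5163 and 5490 in HAI-1con (-1.26), with its second probe set at -1.36. IRF5, a transcription factor of interferon responses, had 327 and 408 in HAI-1KD, against 884 and 780 in HAI-1con (-1.15). PARP12, an interferon-induced ADP-ribosyltransferase, had 1419 and 1348 in HAI-1KD and 1873 and 2029 in HAI-1con (-0.49). All 3 were lower in HAI-1KD with no overlap. Of the 7 genes on this list 5 were below 0 and 3 were called lower (background 10.3%), with a median of -0.34.

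Surface, adhesion and matrix genes were below 0 in 11 of 13, with 3 called lower (background 10.3%), 1 higher (background 8.58%) and a median of -0.21. CAV1, the scaffold of caveolae, was bright and overlapped, with 35004 and 40483 in HAI-1KD and 38079 and 38323 in HAI-1con (-0.02). CAV2, its partner, had 23297 and 23959 in HAI-1KD and 25241 and 26821 in HAI-1con (-0.14). ANLN, which organises the cytokinetic ring, had 10116 and 9536 in HAI-1KD and 10898 and 11866 in HAI-1con (-0.21).

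Imprinted and neighbouring genes ran from GRB10 (-1.06) to PEG10 (1.08). Of 7 member genes 6 were below 0, 3 were called lower (background 10.3%) and 1 higher (background 8.58%), with a median of -0.50. GRB10, an adaptor that binds the insulin receptor, had 59.4 and 132 in HAI-1KD and 153 and 271 in HAI-1con. Its groups did not overlap, and its other member probe sets gave -2.18 and -0.25. PON2, a paraoxonase, had 4050 and 3718 in HAI-1KD and 5682 and 5317 in HAI-1con (-0.50). SGCE (chr7:94052477-94123414), the epsilon-sarcoglycan, had 1955 and 1902 in HAI-1KD and 3259 and 3174 in HAI-1con (-0.73). PEG10 (chr7:94123617-94136943), a gene derived from a retrotransposon that lies beside SGCE on the other strand, had 990 and 1382 in HAI-1KD and 561 and 529 in HAI-1con (1.08), with no overlap. Its second member probe set, which was dim, gave 0.16. These neighbours thus differed in opposite directions.

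Zinc finger cluster genes were below 0 in 11 of 16, with a median of -0.16. Of these genes 2 were called lower (background 10.3%) and 1 higher (background 8.58%), which is near the shares of all genes. ZNF746 had 654 and 729 in HAI-1KD and 1068 and 921 in HAI-1con (-0.51). ZNF138, in band q11.21, had 234 and 288 in HAI-1KD and 136 and 125 in HAI-1con (0.91). ZNF277 had 2048 and 1693 in HAI-1KD and 1910 and 1988 in HAI-1con, and the groups overlapped. Of its 3 member probe sets 2 were below 0, and the highest gave 0.69.

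**Figure D5:**
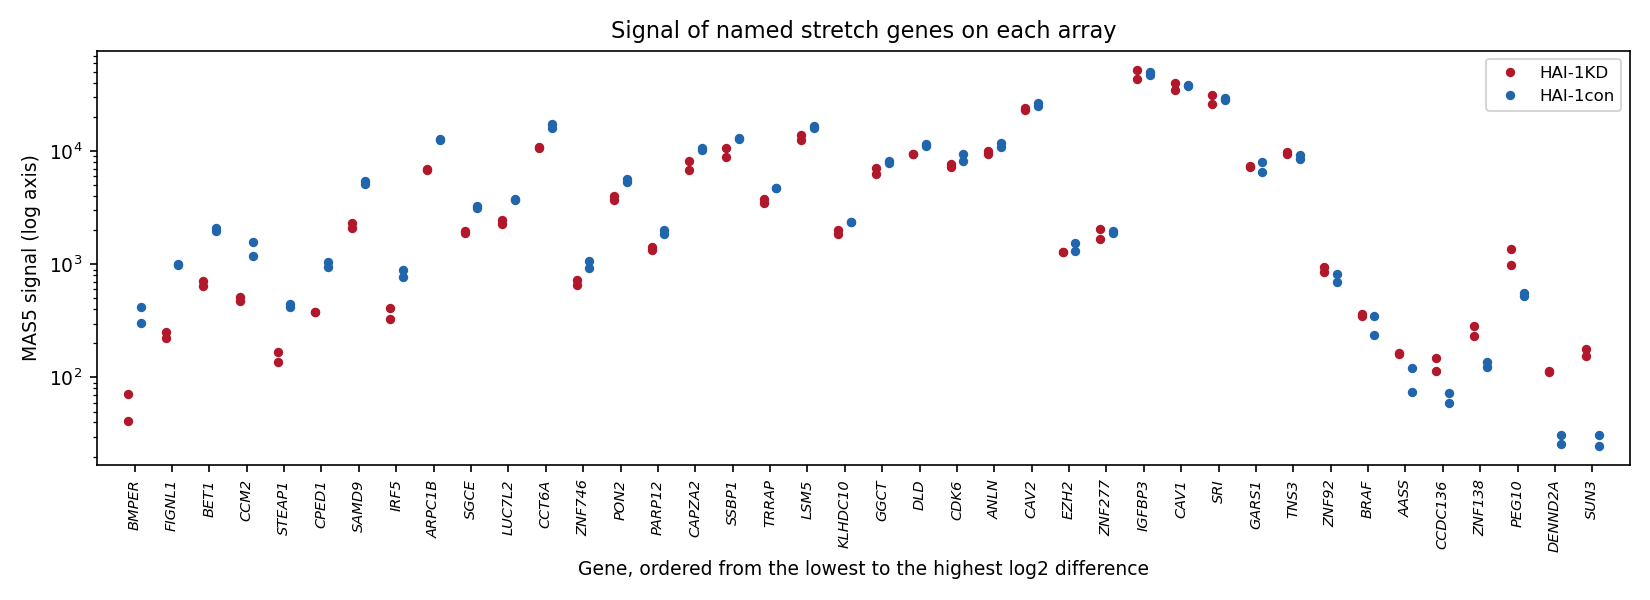
MAS5 signal (y axis, log scale) of named member genes on each HAI-1KD array (red) and each HAI-1con array (blue), ordered from the lowest log2 difference (BMPER, -2.40) to the highest (SUN3, 2.06). The red points lie below the blue ones from BMPER to EZH2, overlap them in genes such as CAV1 and SRI, and lie above them at the right end.

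Positions given here are those of the deposited alignments, whose genome build is not given in the sources used here, and they are not on the scale of the GRCh38.p14 promoters. The lowest named genes included BMPER (chr7:34160152-34160946), a secreted modulator of BMP signalling, with signals of 40.9 and 71.6 in HAI-1KD and 306 and 416 in HAI-1con (-2.40). CCM2, a scaffold protein of endothelial junction signalling, had 512 and 475 in HAI-1KD and 1582 and 1183 in HAI-1con (-1.44). STEAP1, a member of the metalloreductase family, had 169 and 136 in HAI-1KD and 416 and 449 in HAI-1con (-1.42). CPED1 had 378 and 376 in HAI-1KD and 1041 and 945 in HAI-1con (-1.36). In all 4 genes both HAI-1KD arrays lay well below both HAI-1con arrays. The highest were SUN3, a nuclear envelope protein, and DENND2A, an activator of Rab proteins. SUN3 (chr7:47993274-47995068) had 177 and 155 in HAI-1KD and 31.0 and 24.8 in HAI-1con, and was called present on both HAI-1KD arrays and on no HAI-1con array. Its log2 difference was 2.06 with the constant of 16, 2.54 with a constant of 1 and 1.32 with a constant of 64, so no fold is given. DENND2A (chr7:139864690-139873770) had 115 and 111 in HAI-1KD and 30.9 and 26.0 in HAI-1con, with the same calls, and its log2 difference was 1.54, 1.95 with a constant of 1 and 0.93 with a constant of 64. AASS, an enzyme of lysine breakdown, had 161 and 163 in HAI-1KD and 121 and 75.0 in HAI-1con (0.68). CCDC136 had 115 and 149 in HAI-1KD and 72.8 and 59.7 in HAI-1con (0.84). The groups of both genes did not overlap. HGF, the ligand of the MET receptor, lies in stretch 2 but had no probe set at the minimum, so it is not a member.

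Some members do not report on a gene of chromosome 7. By RefSeq, 482 members had their gene on chromosome 7, with a median of -0.45 (85.1% below 0). A further 15, for 12 genes, had it on another chromosome, and 11 of these lay above 0 (median 0.19), for example SLC25A5, the mitochondrial ADP/ATP carrier on chromosome X, at 18287 and 19831 in HAI-1KD and 15839 and 16243 in HAI-1con. The rest had no gene or were not in the table (124 members, median -0.29). Of the 483 members present on all arrays, 29 (6.00%, background 32.6% of probe sets present on all arrays) had both HAI-1KD arrays above both HAI-1con arrays. Of these, 8 had their gene on another chromosome, 19 on chromosome 7 and 2 had none.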

How the data were processed

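RNA of 4 SAS arrays (2 HAI-1KD, 2 HAI-1con) was measured on an Affymetrix array. The deposited intensity values are MAS5 signals, per the submitters' processing notes, on a linear scale with a trimmed mean of 500.1 on each array. MAS5 subtracts background before the signals are formed. The deposited log2 columns were the authors' log2 signals less the median of each probe set, checked on all 54675 probe sets, and were not used further. Detection calls were taken as deposited. No software version or build of the alignments is stated in the labels or headers used.

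Probe sets entered as log2(signal + 16), unscaled between arrays, where they lay outside the controls and had a mean signal of 55 or more. limma 3.58.1 in R 4.3.3 gave calls by a two-sided moderated test with mean-variance trend (2 residual and 8.6 prior degrees of freedom). Benjamini-Hochberg adjustment was made over all 27985 probe sets, with calls at 0.05. The method was also tested on simulated data. Probe sets were drawn independently there, so that test does not cover neighbouring genes that differ together. With 2 arrays a group, 0.333 is the smallest two-sided p that an exact permutation test allows. The number of arrays limits the precision.

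The members and lists were chosen with earlier results of these data known. Genes named are the 3 brightest members of each list, the genes at the stretch edges, the 6 lowest and 6 highest genes present on both arrays of a group, and SAMD9, CAV1, CDK6, EZH2, BRAF and HGF. Not all are reported here. Further genes are named by extremes of a list, detection change or gene placement, and were chosen after their values were seen. Symbols, gene placement and promoters came from RefSeq tables of GRCh38.p14. Other settings of the constant, filter, scaling, probe set choice, variance model, arrays and replicate block were tried.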

Additional observations from a re-analysis of the deposited data

How the results depend on the processing

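The median log2 difference of the members, -0.40, stayed below 0 under every setting tried. It was -0.42 with a constant of 1 and -0.34 with a constant of 64, -0.21 with no minimum, -0.48 with a minimum of 200 and -0.44 over probe sets present on all 4 arrays. It was -0.41 with arrays centred on their medians, -0.42 after quantile normalization, -0.41 for probe sets with 1 alignment, -0.38 without _s_at and _x_at probe sets and -0.43 with 1 probe set per gene. Leaving out 1 array gave -0.40 to -0.38. Among settings chosen after seeing the data, it was -0.32 over the whole chromosome from the first stretch on and -0.45 for members whose RefSeq gene is on chromosome 7. By limma, 217 members (34.9%, against 8.06% of all tested) were called lower. This was 131 of 1289 (10.2%, against 2.36%) with no minimum, 134 of 415 (32.3%, against 8.22%) without _s_at and _x_at probe sets, 125 of 272 (46.0%, against 11.6%) with 1 probe set per gene and 64 (10.3%, against 2.64%) with no mean-variance trend. It was 116 to 218 when 1 array was left out. With 1 probe set per gene, or without _s_at and _x_at, fewer probe sets enter; for the others the cause was not tested. With the replicate block the count was 224 (36.1%, against 8.26%) and the median -0.40. The labels give the replicates only the marks Ex1 and Ex2, and deviations of same-numbered arrays correlated at -0.0182. Of 45 named genes, 39 kept their sign over 9 settings; IGFBP3, ZNF277, CAV1, SRI, GARS1 and NOD1 did not. Dim probe sets and 2 arrays a group limit what can be told for single genes.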
